A study of Mus musculus with 8 samples.

Results

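Asb2, Cul5 and Flna encode the substrate-recognition subunit of a ubiquitin ligase, the cullin scaffold of that ligase and one of the proteins it marks for destruction. They were taken from an array study of mouse dendritic cells (DCs) as every probe set annotated to exactly 1 of these 3 symbols, which gave 5 of the 45037 probe sets tested and 3 of the 18193 genes that have a probe set of a single symbol. Asb2 was selected on measured values, its higher signal after 12 h of treatment, and Cul5 and Flna were added for their known link to it. The contrast at 12 h is therefore given for the 3 genes as a description without a test.

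ASB2 carries ankyrin repeats, which bind the protein to be degraded, and a SOCS box, which docks it through Elongin B and Elongin C onto Cullin 5 and the RING protein Rnf7. Filamins cross-link actin filaments and bind the cytoplasmic tails of integrins, and ASB2 sends them to the proteasome. In immature DCs this ligase is known for its part in cell spreading and migration. Asb2 was first described as a retinoic acid-induced gene of myeloid leukaemia cells, and another isoform is made in muscle.

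The cells were bone marrow-derived DCs (BMDCs) of 6-week-old female BALB/c mice, grown for 9 days with GM-CSF (200 U/mL by the labels) and collected as the non-adherent fraction of the culture. [BF/S+L/Ep], a butanol fraction of stem and leaf extract of Echinacea purpurea, was given at 75 μg/mL in DMSO for 12 h or 4 h, and control cultures received 0.1% DMSO alone for the same times. All 4 groups ([BF/S+L/Ep] at 12 h, DMSO at 12 h, [BF/S+L/Ep] at 4 h, DMSO at 4 h) therefore shared GM-CSF and DMSO, and each had 2 Affymetrix mouse 430 2.0 arrays, 8 in all. The study describes the 2 arrays of a group as replicates of biological samples from cell culture, and does not say whether they came from different mice or days, so p-values measure only the spread between these arrays.

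The deposited values are MAS5 signals, an intensity per probe set on a linear scale whose trimmed mean is 500.0 on each array. Median signals were 86.4 to 103.7. A background reference was taken on each array from probe sets of odorant, pheromone and taste receptors, as a stand-in for genes without expression, and lay at 75.1 and 75.6 ([BF/S+L/Ep], 12 h), 106.5 and 79.5 (DMSO, 12 h), 74.8 and 66.5 ([BF/S+L/Ep], 4 h) and 90.0 and 97.3 (DMSO, 4 h). It was thus lower on every [BF/S+L/Ep] array than on every DMSO array. The part of this shift in any result was not tested. Of 14 DC markers, 13 were above the reference on all 8 arrays, among them Itgax, H2-Ab1, Csf2ra, Zbtb46 and Ccr7, and Flt3 was above it on 6. Their summed signal was 251059 and 258565 with [BF/S+L/Ep] against 249196 and 263497 with DMSO at 12 h, and 275059 and 259248 against 258089 and 258498 at 4 h. Of 7 macrophage markers measured, 5 were above the reference on all 8 arrays too, and the share of each cell type was not tested. In a bulk culture such as this, fewer cells of a type and less RNA per cell cannot be told apart.

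RefSeq (GRCm38.p6) lists 2 start sites for Asb2, 17611 bases apart on the minus strand of chromosome 12, and 1 each for Flna and Cul5. The 250 bases before both Asb2 starts and before the Flna start are shown because treated and vehicle arrays separated for Asb2 and overlapped for Flna, and because the Asb2 starts differ in the short motifs they hold. Capitals mark a CArG box (CCATATATGG, the letters that serum response factor is known to bind) and an E-box (CACGTG) in the upstream Asb2 window, and GGGCGG or its complement CCGCCC, an Sp1 motif, in that of Flna.
Asb2, upstream start, chr12:103356002-103356251: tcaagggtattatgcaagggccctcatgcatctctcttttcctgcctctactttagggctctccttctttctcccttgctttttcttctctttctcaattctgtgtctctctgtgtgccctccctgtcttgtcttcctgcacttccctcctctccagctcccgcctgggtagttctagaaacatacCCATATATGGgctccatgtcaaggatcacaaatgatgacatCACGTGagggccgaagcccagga
Asb2, downstream start, chr12:103338391-103338640: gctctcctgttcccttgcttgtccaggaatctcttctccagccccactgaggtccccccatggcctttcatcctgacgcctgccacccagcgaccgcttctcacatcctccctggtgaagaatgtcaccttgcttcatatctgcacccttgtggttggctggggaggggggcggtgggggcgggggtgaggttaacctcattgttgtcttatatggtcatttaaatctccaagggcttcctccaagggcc
Flna, chrX:74246535-74246784: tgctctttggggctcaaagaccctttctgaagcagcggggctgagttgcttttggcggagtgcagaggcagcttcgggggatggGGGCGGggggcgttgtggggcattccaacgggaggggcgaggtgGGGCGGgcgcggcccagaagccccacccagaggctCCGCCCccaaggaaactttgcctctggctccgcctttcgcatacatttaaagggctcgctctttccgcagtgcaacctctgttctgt

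The CArG box ended 55 bases and the E-box 18 bases before the upstream Asb2 start. Of 32851 windows of this length in the same table, 1.47% held a CArG box and 6.02% held CACGTG. The downstream Asb2 window held neither of these and had GGGCGG at 2 places, and the Flna window had it at 3, where 32.7% of all windows had at least 1. The Cul5 window (chr9:53667508-53667757) held GCGTG once, the core letters of the element bound by the dioxin receptor, as did 28.2% of all windows. AGGTCA, one arm of the site bound by retinoic acid receptors, was in none of the 4 windows and in 14.0% of all windows. The motifs were searched on both strands and chosen after the sequences had been read. The tables used here do not say which Asb2 start the probe set measures.

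Asb2 had 1 probe set (1428444_at), over the background reference in every sample. At 12 h its signals were 710.8 and 682.6 with [BF/S+L/Ep] and 263.1 and 243.0 with DMSO. Both treated arrays stood above both vehicle arrays, as did those of 15.1% of all probe sets at 12 h, with means of 696.7 ± 19.9 and 253.1 ± 14.2 (SD, n = 2 each), a ratio of 2.75 and a log2 difference of 1.46. The ratio of any treated to any vehicle array at this time was between 2.59 and 2.92. This is the contrast that chose the gene. Among 10879 genes that exceeded the reference on 4 or more arrays, the log2 difference of Asb2 ranked 38 from the top.

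**Figure D1:**
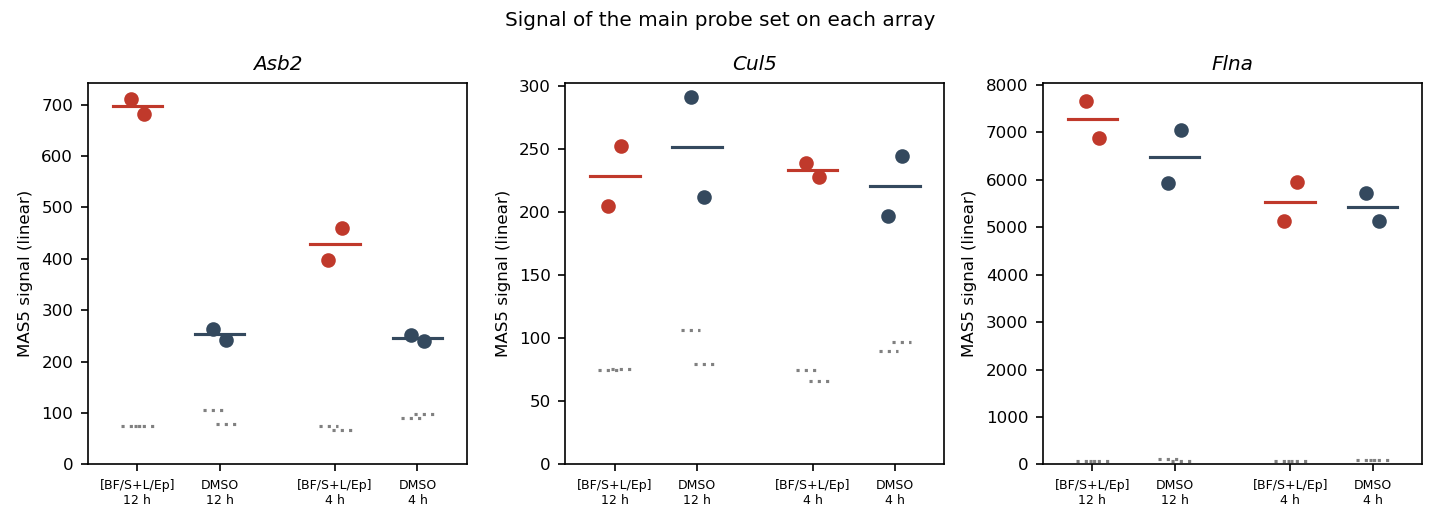
MAS5 signal (linear) of the main probe sets of Asb2, Cul5 and Flna on each of the 8 arrays, with [BF/S+L/Ep] in red and DMSO in dark blue, horizontal lines for the means of 2 arrays and dotted grey lines for the background reference of each array. Asb2 is at 682.6 and 710.8 on the treated arrays at 12 h and at or below 459.9 elsewhere, whereas treated and vehicle points of Cul5 and Flna overlap at both times.

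The arrays at 4 h had no part in that choice. Asb2 was at 397.7 and 459.9 with [BF/S+L/Ep] and at 252.0 and 239.2 with DMSO. Both treated arrays were above both vehicle arrays, as were those of 15.1% of all probe sets at this time. The means were 428.8 ± 44.0 and 245.6 ± 9.05 (SD, n = 2 each), the ratio of means was 1.75, and single ratios ran between 1.58 and 1.92. The log2 difference was 0.80 (SE 0.19, 95% interval 0.40 to 1.21), rank 138 of 10879 from the top. Its unadjusted p in the limma fit was 0.000934 and its adjusted p was 0.657, so the difference did not pass the test over all probe sets. Of all probe sets, 0.00444% (2 of 45037) passed at 4 h, and 0 of the 3 main probe sets of Asb2, Cul5 and Flna did, with 1 of 3 (Asb2) at an unadjusted p under 0.05, which 1120 probe sets reached with a higher and 1118 with a lower signal.

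The levels of Asb2 stood in the order [BF/S+L/Ep] at 12 h, [BF/S+L/Ep] at 4 h, DMSO at 12 h and DMSO at 4 h. The DMSO groups were not separated from each other: vehicle cells had 263.1 and 243.0 at 12 h against 252.0 and 239.2 at 4 h, a log2 difference of 0.04. With [BF/S+L/Ep], the 12 h arrays were both above the 4 h arrays, by 0.70 on the log2 scale and 1.63-fold in the means. The treated over vehicle difference was larger at 12 h than at 4 h by 0.66 on the log2 scale. These figures share the 12 h arrays on which the gene was picked and are given without a test.

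Cul5, the scaffold that holds the RING protein and the SOCS box module together, was measured by 3 probe sets. On the main one (1428287_at, above the reference on all 8 arrays), the signals at 12 h were 204.9 and 252.6 with [BF/S+L/Ep] and 291.9 and 211.9 with DMSO. The groups overlapped, with means of 228.8 ± 33.7 and 251.9 ± 56.6 (SD, n = 2 each) and a log2 difference of -0.13. At 4 h the signals were 238.9 and 228.3 with [BF/S+L/Ep] and 197.5 and 245.1 with DMSO. They overlapped again, at 233.6 ± 7.50 and 221.3 ± 33.7, and the log2 difference of 0.09 had a 95% interval of -0.49 to 0.67 (adjusted p = 1.0, limma).

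The other Cul5 probe sets were each above the reference on 7 of the 8 arrays. The signals of 1456102_a_at at 12 h were 151.1 and 139.8 with [BF/S+L/Ep] against 105.4 and 101.2 with DMSO, 0.49 higher on the log2 scale and without overlap. At 4 h they overlapped, at 145.6 and 192.7 against 163.4 and 140.8. Those of 1452722_a_at at 12 h were 72.7 and 243.1 with [BF/S+L/Ep] against 111.8 and 93.5 with DMSO, the treated pair enclosing the vehicle pair. The 3 probe sets of Cul5 thus did not share a direction at 12 h, with log2 differences of -0.13, 0.49 and 0.38. Over time the main probe set differed by -0.04 with [BF/S+L/Ep] (adjusted p = 0.977) and by 0.18 with DMSO (adjusted p = 0.881, limma), and the other probe sets turned the sign in DMSO cells, at -0.55 and -0.25 (adjusted p = 0.589 and 0.920).

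The remaining subunits of the ligase were above the reference on all 8 arrays, and none passed the test for [BF/S+L/Ep], where 0.0200% of all probe sets (9 of 45037) passed at 12 h. Rnf7 is the RING protein that recruits the ubiquitin-loaded enzyme. It was at 2274.0 and 2205.1 with [BF/S+L/Ep] against 2372.9 and 2320.0 with DMSO at 12 h (log2 difference -0.07, adjusted p = 0.973) and at 2637.8 and 2526.7 against 2335.5 and 2783.5 at 4 h (0.02, adjusted p = 1.0). Elob, which encodes Elongin B, was at 6085.5 and 5424.8 with [BF/S+L/Ep] against 5092.4 and 5871.0 with DMSO at 12 h (0.07, adjusted p = 0.972). Eloc encodes Elongin C, the adaptor that contacts the SOCS box. Its signals were 6171.7 and 5673.9 with [BF/S+L/Ep] against 6160.0 and 7171.3 with DMSO at 12 h (-0.17, adjusted p = 0.927), and at 4 h both Elongin genes differed by -0.09 (adjusted p = 1.0). On these main probe sets the treated and vehicle arrays overlapped at both times except for Rnf7 at 12 h, where both treated arrays were the lower. The share of all probe sets that were lower without overlap was not computed, while 15.1% were higher without overlap at 12 h. Other probe sets of the same genes differed in this. A second one of Rnf7 overlapped at 12 h at 0.09 (adjusted p = 0.977, limma). A second one of Elob was lower without overlap at 12 h at -0.09 (adjusted p = 0.956). A second one of Eloc was lower without overlap at 12 h and 4 h, at -0.27 and -0.24 (adjusted p = 0.896 and 0.997). A further one of Eloc, above the reference on all 8 arrays, overlapped at both times, at 0.34 at 12 h and -0.01 at 4 h. The dimmest one of Eloc, above the reference on 5 arrays, also overlapped at both times, at 0.07 and -0.44. The probe sets of Eloc thus did not share a direction at 12 h. For [BF/S+L/Ep], 0 of the 4 subunits tested at 4 h reached an unadjusted p under 0.05. At 12 h, where Cul5 was not tested, 0 of 3 did. Over time 1 did, Elob with DMSO, at -0.35 (adjusted p = 0.170).

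**Figure D2:**
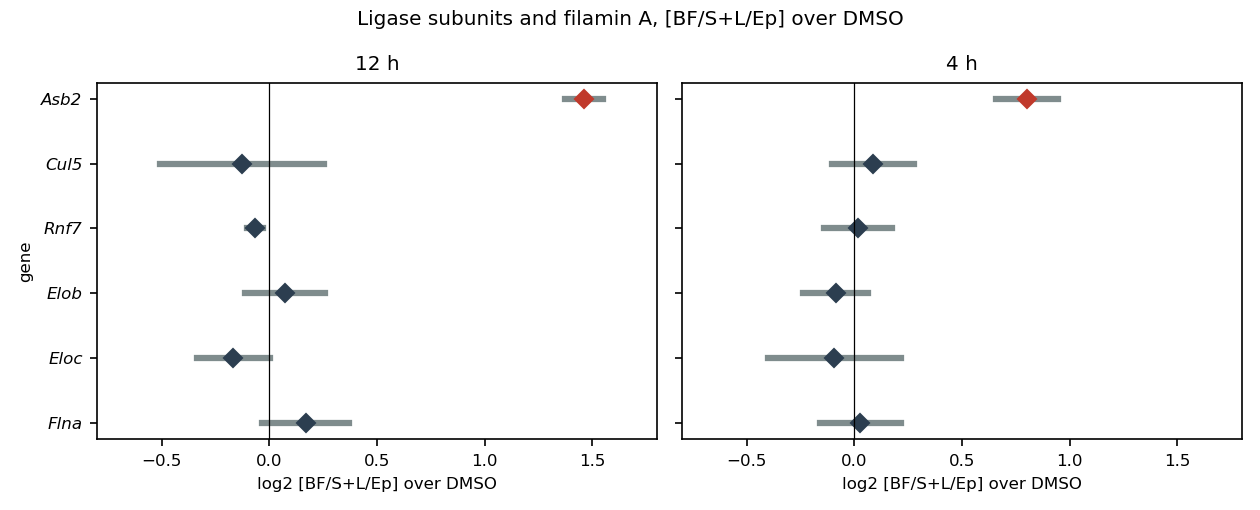
Log2 difference of [BF/S+L/Ep] over DMSO at 12 h (left) and 4 h (right) for Asb2, the other ligase subunits and Flna, with diamonds for the difference of group means and grey bars from the lowest to the highest of the 4 ratios of a treated to a vehicle array. Asb2 lies at 1.46 at 12 h and 0.80 at 4 h, and every other gene shown lies between -0.17 and 0.17.

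Flna, which encodes filamin A, was measured by 1 probe set (1426677_at), above the reference on all 8 arrays. At 12 h it was at 7667.6 and 6886.9 with [BF/S+L/Ep] and at 5923.4 and 7049.7 with DMSO. One vehicle array lay above one treated array, the means were 7277 ± 552 and 6487 ± 796 (SD, n = 2 each), and the log2 difference was 0.17. At 4 h it was at 5130.7 and 5949.1 with [BF/S+L/Ep] and at 5729.0 and 5129.3 with DMSO. The groups overlapped, at 5540 ± 579 and 5429 ± 424, and the log2 difference of 0.03 had a 95% interval of -0.23 to 0.29 (adjusted p = 1.0, limma). The arrays measure RNA, and the amount of filamin protein, on which the ligase acts, was not analysed here.

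Over time Flna was higher at 12 h than at 4 h under both treatments, but not past the test. With [BF/S+L/Ep] the means were 7277 ± 552 at 12 h and 5540 ± 579 at 4 h, a ratio of 1.31 and a log2 difference of 0.40 (95% interval 0.13 to 0.66, unadjusted p = 0.00618, adjusted p = 0.121, limma). With DMSO they were 6487 ± 796 at 12 h and 5429 ± 424 at 4 h, a ratio of 1.20 and a log2 difference of 0.25 (95% interval -0.01 to 0.52, adjusted p = 0.425). Both 12 h arrays were above both 4 h arrays in either treatment, as were those of 22.0% of all probe sets with [BF/S+L/Ep] and 22.5% with DMSO. Of all probe sets 2.86% passed over time with [BF/S+L/Ep] and 2.10% with DMSO, and of the 4 probe sets of Cul5 and Flna 0 passed in either, with 1 of 4 (Flna with [BF/S+L/Ep]) at an unadjusted p under 0.05.

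Flnc, the filamin of striated muscle, had 2 probe sets. The brighter was at 38.8 and 95.7 with [BF/S+L/Ep] and 15.5 and 72.9 with DMSO at 12 h, and at 14.3 and 12.4 with [BF/S+L/Ep] and 19.3 and 81.0 with DMSO at 4 h. It was above the reference on 1 of the 8 arrays, and the other probe set on 0, so no fold is given. The remaining filamin gene was not analysed here. Of 11 muscle markers, 0 were above the reference on all 8 arrays, and Myh1, Myh2, Myh4, Actn2 and Myl1 were above it on none, while Asb2 was above it on all 8. The summed muscle signal was 514.0 and 522.9 with [BF/S+L/Ep] against 770.7 and 708.0 with DMSO at 12 h, and 606.9 and 527.0 against 529.0 and 506.6 at 4 h. Of these markers 3 were above the reference on 4 or more arrays, the reference itself was lower on the treated arrays, and the part of either in the result was not tested.

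The wider class of ligase genes was then set beside Asb2. Of 17 other ASB genes, which share its ankyrin repeats and SOCS box, 6 were above the reference on all 8 arrays and 6 on none. Asb3 and Asb8 were the brightest. Asb8 was at 796.9 and 992.4 with [BF/S+L/Ep] against 716.8 and 780.5 with DMSO at 12 h, 0.25 higher on the log2 scale (adjusted p = 0.896, limma), and differed by 0.31 at 4 h (adjusted p = 0.997). Asb3 differed by -0.16 at 12 h (adjusted p = 0.923) and by 0.00 at 4 h (adjusted p = 1.0). No ASB gene passed in any of the 4 contrasts in the limma fit, with 1 higher at 12 h (of all genes 483 higher and 699 lower) and 1 lower at 4 h (of all genes 439 higher and 481 lower) at an unadjusted p under 0.05, and 4 over time with [BF/S+L/Ep] and 3 with DMSO. Among all 18193 genes that p was reached by 1385 higher and 1700 lower over time with [BF/S+L/Ep], and by 1323 higher and 1403 lower with DMSO. The median log2 difference of the 17 ASB genes was -0.17 at 12 h and -0.11 at 4 h, where those of all genes were -0.04 and -0.02. Only 7 of the 17 were above the reference on 4 or more arrays. The ASB gene that was lower at 4 h at an unadjusted p under 0.05 was above it on 2.

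Among 23 genes of other SOCS box proteins, 21 of them above the reference on all 8 arrays, 0 passed for [BF/S+L/Ep] at either time. Socs3, the feedback inhibitor of cytokine receptors that signal through STAT3, rose over time with [BF/S+L/Ep], to 485.3 and 379.6 at 12 h against 197.5 and 151.1 at 4 h (log2 difference 1.31, adjusted p = 0.0153, limma). Wsb1 rose likewise, to 2942.3 and 2530.3 at 12 h against 1748.7 and 1898.1 at 4 h (0.58, adjusted p = 0.0316). With DMSO the same genes differed by 0.96 (adjusted p = 0.0881) and 0.42 (adjusted p = 0.160), and whether the treatments differ in this was not tested. Socs2 and Klhdc3, the brightest of the list, differed by -0.19 and -0.11 between [BF/S+L/Ep] and DMSO at 12 h (adjusted p = 0.888 and 0.938).

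Cullins work only once the ubiquitin-like protein Nedd8 has been attached to them, and the COP9 signalosome takes it off again. The other cullins with Rbx1 (8 genes, 7 above the reference on all arrays) had no member past the test in any contrast, and at an unadjusted p under 0.05 had 1 higher at 4 h and 1 higher over time with [BF/S+L/Ep]. Cul1 and Cul3, scaffolds of other ligases, differed by -0.00 and -0.05 at 12 h (adjusted p = 1.0 and 0.982) between [BF/S+L/Ep] and DMSO. Of 25 genes of the Nedd8 cycle, 24 were measured and 23 were above the reference on all arrays. Gps1, a subunit of the COP9 signalosome, fell over time under both treatments. It was at 2371.2 and 2410.4 at 12 h against 3521.9 and 3497.2 at 4 h with [BF/S+L/Ep] (-0.55, adjusted p = 0.00804), and at 2430.5 and 2292.0 against 3293.4 and 3191.4 with DMSO (-0.46, adjusted p = 0.0301). Ube2f, the Nedd8-conjugating enzyme that serves Cul5 with Rnf7, rose over time with DMSO, to 4467.4 and 4041.1 at 12 h against 3146.9 and 3161.4 at 4 h (0.43, adjusted p = 0.0456). With [BF/S+L/Ep] it differed by 0.35 (adjusted p = 0.101). Nedd8 itself differed by -0.10 at 12 h and 0.02 at 4 h between [BF/S+L/Ep] and DMSO (adjusted p = 0.954 and 1.0).

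**Figure D3:**
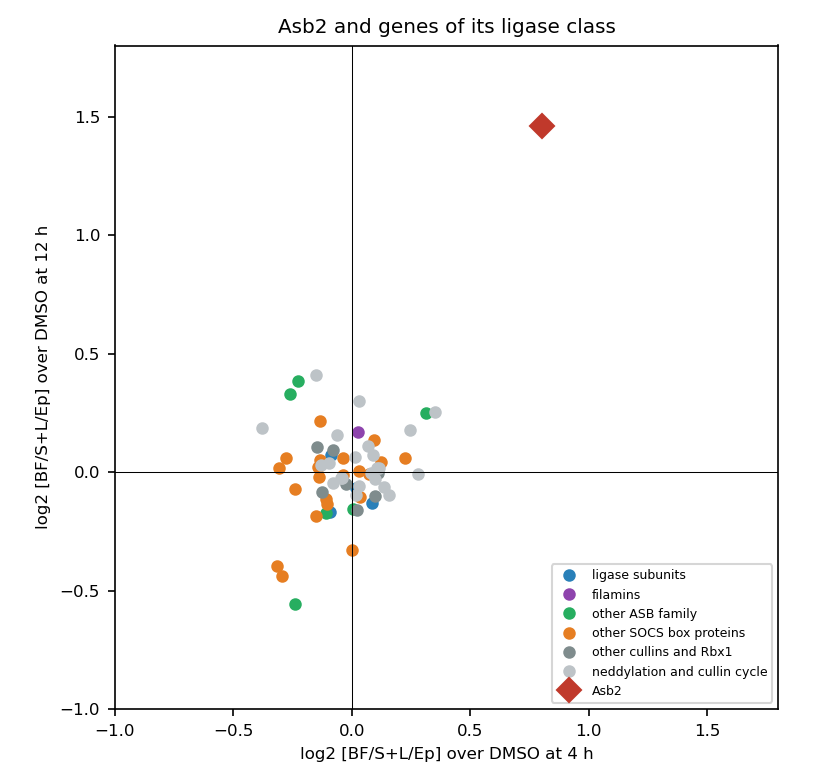
Log2 difference of [BF/S+L/Ep] over DMSO at 4 h (x axis) and 12 h (y axis) for Asb2 (red diamond) and 62 other genes, coloured by list. These are ligase, cullin, Nedd8-cycle and filamin genes, parts of other ligases among them, that exceeded the background reference on all 8 arrays. The 62 genes lie between -0.38 and 0.35 at 4 h and between -0.56 and 0.41 at 12 h, and Asb2 lies at 0.80 and 1.46.

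In all, 62 ligase, cullin, Nedd8-cycle and filamin genes were above the reference on all 8 arrays. Their log2 differences between [BF/S+L/Ep] and DMSO at 12 h ran between -0.56 (Asb1) and 0.41 (Dcun1d4), and at 4 h between -0.38 (Arih2) and 0.35 (Dcun1d3). None of the 62 reached the difference of Asb2 at 4 h, or at 12 h, where Asb2 had been chosen for it. Outside the 62, Rbx1, the RING protein of the other cullins, was above the reference on 5 arrays, at 134.1 and 230.2 with [BF/S+L/Ep] against 132.6 and 10.2 with DMSO at 4 h. Its log2 difference of 2.26 at 4 h was larger than that of Asb2, without passing (adjusted p = 0.988, limma), with 1 vehicle array far under the reference. Asb12, Asb9 and Asb5 also had larger differences than Asb2 at 4 h, at 2.35, 1.31 and 1.03, without passing. Asb12 and Asb9 were above the reference on 0 arrays and Asb5 on 1. The 2 times have no array in common.

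Partners and relatives of filamin were examined next. Of 19 filamin partners, integrin subunits and adaptors among them, 18 were measured, 14 of them above the reference on all arrays. For [BF/S+L/Ep] 0 passed at either time. At an unadjusted p under 0.05 in the limma fit, 1 was higher and 0 lower at each time. The one at 4 h was above the reference on 0 arrays. Over time, talin (Tln1), which competes with filamin for integrin tails, rose with [BF/S+L/Ep], to 3534.4 and 2985.4 at 12 h against 2281.9 and 2388.9 at 4 h (log2 difference 0.48, adjusted p = 0.0368, limma). It differed by 0.41 with DMSO (adjusted p = 0.0931). Ssh1, a phosphatase that activates cofilin, rose under both treatments, by 0.57 with [BF/S+L/Ep] (adjusted p = 0.0231) and by 0.62 with DMSO (adjusted p = 0.0174). Vim and Cfl1, the brightest of the list, differed by -0.41 and -0.17 over time with [BF/S+L/Ep] (adjusted p = 0.0703 and 0.555) and by -0.08 and -0.07 between [BF/S+L/Ep] and DMSO at 12 h (adjusted p = 0.967 each).

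Of 16 other actin cross-linkers, 14 were above the reference on all arrays, and 0 passed for [BF/S+L/Ep] at either time. Fscn1, which bundles actin and is a known mark of DC maturation, rose over time in both treatments. It reached 29402.6 and 31440.9 at 12 h against 18234.7 and 15537.0 at 4 h with [BF/S+L/Ep] (0.85, adjusted p = 0.0012) and 34333.2 and 35138.2 against 20878.4 and 18371.3 with DMSO (0.83, adjusted p = 0.00182). Sptan1, the alpha chain of non-erythroid spectrin, fell in both, by 0.48 with [BF/S+L/Ep] (adjusted p = 0.0222) and by 0.44 with DMSO (adjusted p = 0.0418). Plec, a linker of actin and intermediate filaments, fell with DMSO by 0.49 (adjusted p = 0.0471) and differed by -0.34 with [BF/S+L/Ep] (adjusted p = 0.167). Lcp1, the leukocyte plastin, differed by 0.11 and 0.12 over time (adjusted p = 0.766 with [BF/S+L/Ep] and 0.758 with DMSO).

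**Figure D4:**
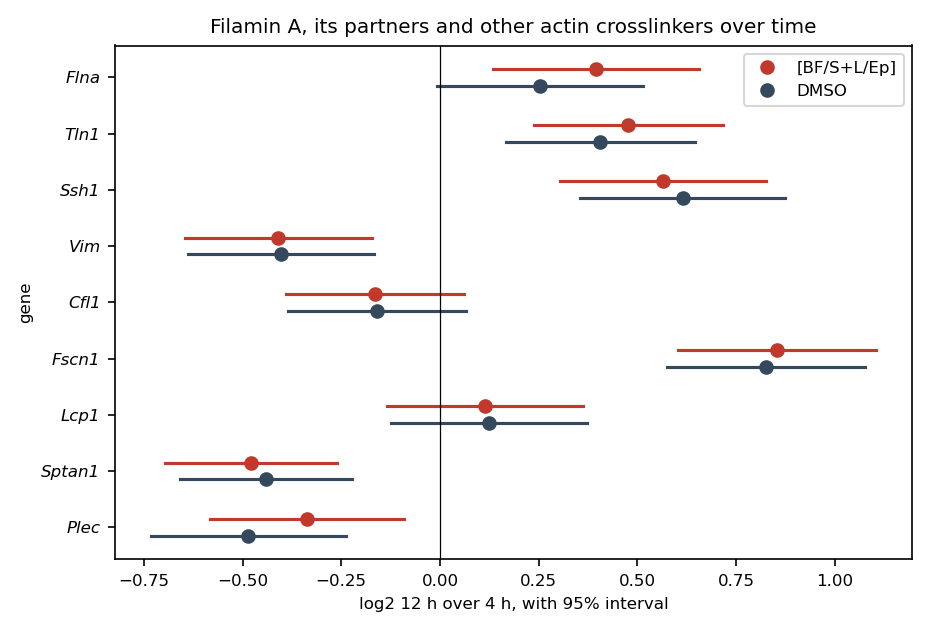
Log2 difference of 12 h over 4 h within [BF/S+L/Ep] (red, upper) and within DMSO (dark blue, lower) for Flna, 4 filamin partners and 4 other actin cross-linkers, with 95% intervals of the limma fit. Points of the 2 treatments lie close together in each gene, with Flna at 0.40 and 0.25, Fscn1 at 0.85 and 0.83 and Sptan1 at -0.48 and -0.44.

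Genes of retinoic acid handling and response were listed because Asb2 is known as a retinoic acid target. Of 22, 21 were measured, 9 were above the reference on all arrays and 7 on none, and 0 passed for [BF/S+L/Ep] at either time. Aldh1a2, the enzyme that makes retinoic acid in DCs, was at 6311.1 and 6132.6 with [BF/S+L/Ep] against 7372.7 and 7630.3 with DMSO at 12 h (-0.27, adjusted p = 0.737, limma). Cyp26a1, the enzyme that degrades retinoic acid and a sensitive target of it, was not above the reference on any array. Tgm2, a transglutaminase that retinoic acid is known to induce, was at 12167.7 and 10447.2 with [BF/S+L/Ep] against 17303.0 and 16808.2 with DMSO at 12 h, a lower level without overlap that did not pass the test (-0.60, adjusted p = 0.165). It fell over time with [BF/S+L/Ep] by 0.47 (adjusted p = 0.0488). Hic1, a transcriptional repressor, was at 274.2 and 308.7 with [BF/S+L/Ep] against 103.9 and 130.3 with DMSO at 4 h (1.32, adjusted p = 0.203) and differed by 0.21 at 12 h (adjusted p = 0.953). In vehicle cells it rose over time, by 1.48 on the log2 scale (adjusted p = 0.00483). Tgm2 over time with DMSO and Hic1 over time with [BF/S+L/Ep] did not pass. Whether the treatments differ in these changes was not tested. Of the 9 genes above the reference on all arrays, Tgm2, Aldh1a2, Rxra and Rxrb were lower with [BF/S+L/Ep] than with DMSO at 12 h without overlap. Rarres1, Rdh10 and Hic1 were higher without overlap, as were 15.1% of all probe sets, and the share that was lower was not computed. At an unadjusted p under 0.05 in the limma fit, 0 of the 21 genes were higher at 12 h and 4 were lower. Among all genes 483 were higher and 699 lower at that p. Rxrg, 1 of the 4, was above the reference on 0 arrays.

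Over the 9 lists together, Cul5 and Flna included at 4 h and over time, 0 of 131 genes passed for [BF/S+L/Ep] at 12 h in the limma fit, where 2 were higher and 9 lower at an unadjusted p under 0.05. Of all 18193 genes 0.044% passed at 12 h, and that unadjusted p was reached by 483 with a higher and 699 with a lower signal. At 4 h 0 of 133 passed, against 0.011% of all genes, and an unadjusted p under 0.05 was found for 4 listed genes in each direction, against 439 higher and 481 lower genes in all. Over time 5 rose and 3 fell with [BF/S+L/Ep] and 4 rose and 3 fell with DMSO, which is 6.02% and 5.26% of the listed genes, where 4.26% and 3.34% of all 18193 genes passed.

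The 5 genes whose log2 signals followed those of Asb2 most closely over the 8 arrays, among the same 10879 genes, were Mmp8, Rab10, Ddit4, Itprid2 and Prdm2, with Pearson r between 0.98 and 0.95. The 8 points are 4 groups of 2 arrays, so that r mostly reflects the group means. Mmp8, the neutrophil collagenase, was at 5975.0 and 6420.3 with [BF/S+L/Ep] against 2937.2 and 2741.1 with DMSO at 12 h, and at 3608.4 and 3752.6 against 2609.3 and 2526.9 at 4 h. Like Asb2, it was highest on the treated arrays at 12 h and next highest on those at 4 h. The neutrophil markers did not follow this order, with a summed signal of 3065 and 2770 with [BF/S+L/Ep] against 3248 and 3236 with DMSO at 12 h, and 4146 and 3233 against 3620 and 3381 at 4 h. Of these 7 markers, S100a8, S100a9 and Ngp were above the reference on all arrays and Elane on none.

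Rab10, a GTPase of vesicle transport, came next by r (0.974), over a narrower range. It was at 5545.6 and 5488.0 with [BF/S+L/Ep] against 4747.2 and 4444.9 with DMSO at 12 h, and at 4926.2 and 5200.2 against 4401.0 and 4555.6 at 4 h. Ddit4, a stress-induced inhibitor of mTORC1, was at 983.1 and 914.7 with [BF/S+L/Ep] against 649.6 and 577.9 with DMSO at 12 h, and at 659.4 and 734.2 against 585.3 and 601.2 at 4 h. Itprid2, which encodes an actin-associated protein that interacts with inositol trisphosphate receptors, was at 4233.8 and 4751.0 with [BF/S+L/Ep] against 2829.7 and 3093.5 with DMSO at 12 h, and at 3671.2 and 3951.0 against 2710.1 and 2616.8 at 4 h. In Prdm2, a histone methyltransferase gene, the treated arrays were at 786.5 and 715.0 against 589.0 and 580.1 with DMSO at 12 h. In each of these genes both treated arrays were above both vehicle arrays at both times. At 12 h alone, and at 4 h alone, 15.1% of all probe sets did so, and the share at both times was not computed. The genes were picked for following Asb2, which separates the same arrays. This order was therefore largely set by the choice and is no separate result.

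**Figure D5:**
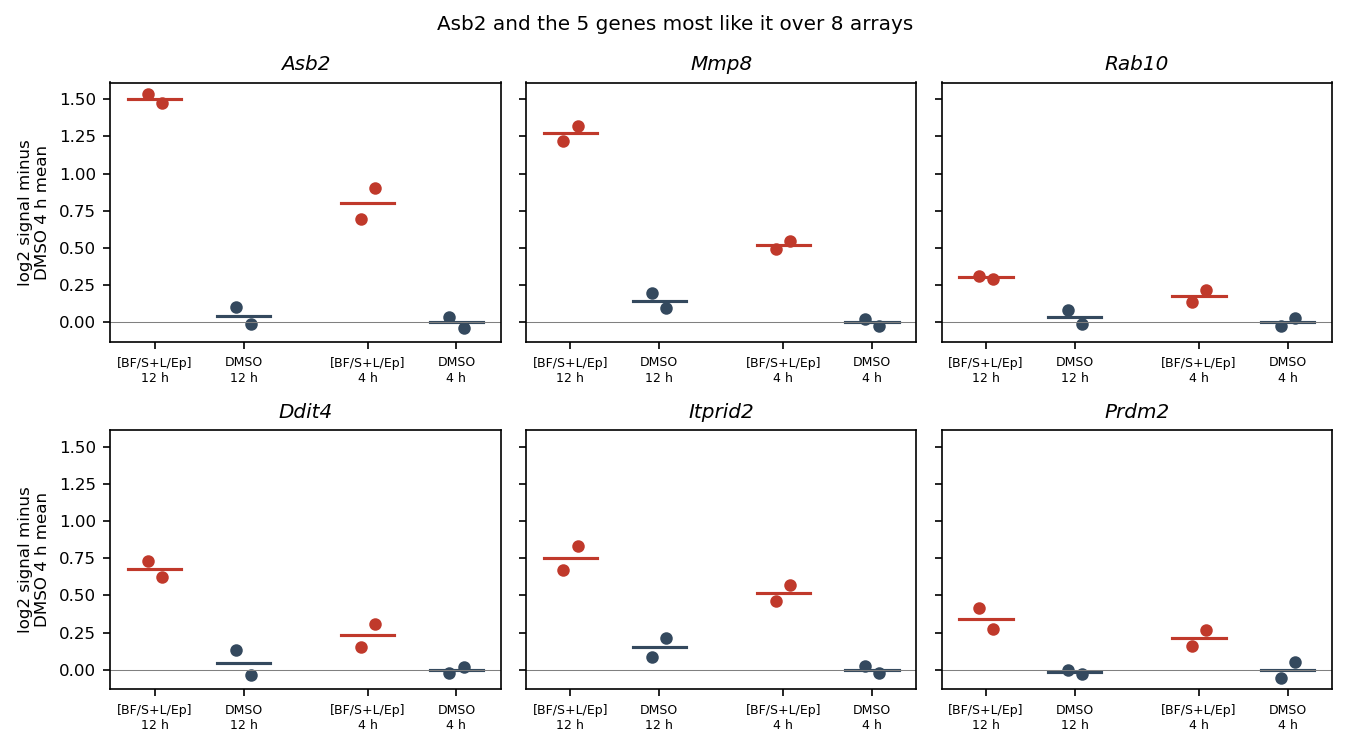
Log2 signal minus the mean of the DMSO arrays at 4 h for Asb2 and the 5 genes most correlated with it, on each of the 8 arrays, with [BF/S+L/Ep] in red, DMSO in dark blue and lines for group means. All 6 genes are highest with [BF/S+L/Ep] at 12 h, and the range is widest for Asb2 and Mmp8.

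The r of Asb2 was -0.08 with Cul5 and 0.53 with Flna, and that of Cul5 with Flna was -0.32, over the same 8 arrays and without a test. These values cannot be read against those of the 5 genes above, which had the highest r of 10879 genes. The r of a typical gene with Asb2 was not computed. The genes most like Flna, a search added after its values had been seen, were Dock8, Inppl1, Itgb8, Stat6 and Cnn2, with r between 0.977 and 0.963. Dock8, an exchange factor needed for DC migration, was at 3514.2 and 3259.5 with [BF/S+L/Ep] against 2924.8 and 3152.4 with DMSO at 12 h, and at 2626.9 and 3015.7 against 2885.2 and 2582.4 at 4 h. Cnn2, an actin-binding calponin, was at 8900.2 and 8276.4 with [BF/S+L/Ep] against 6861.6 and 8290.9 with DMSO at 12 h. As in Flna, the groups of Cnn2 overlapped at 12 h.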

How the data were processed

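The authors hybridized labelled RNA of BMDCs to 8 Affymetrix 430 2.0 arrays and deposited MAS5 signals, which are intensity values on the linear scale scaled to a trimmed mean of 500.0 (2% off each end). No source used here gives the MAS5 version, and detection calls were not used. Of 45101 probe sets, 64 controls were left out. Of the 45037 tested, 34945 had 1 symbol in the platform annotation, 932 several and 9160 none, and 34741 of those with 1 symbol matched a RefSeq gene ID. For each gene the probe set with the highest mean log2 signal is the main one.

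The log2 signals entered 1 fit of 4 group means over all 8 arrays in limma 3.58.1 (R 4.3.3; eBayes with an intensity trend, residual df 4, prior df 8.833), two-sided, with Benjamini-Hochberg adjustment over 45037 probe sets, a threshold of 0.05 and 95% intervals. Reported SDs are of the linear signals of 2 arrays, a number that limits the precision of every value. The background reference is the 95th percentile of 86 receptor probe sets on each array, and 23406 probe sets were above it on at least 4 arrays. Replicates of a group correlated at r = 0.904 to 0.912 over log2 signals of all probe sets, so no array was a copy of another.

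Genes named are Asb2, Cul5, Flna, the ligase subunits and filamins, called members and the 2 brightest of each other list, and the 5 genes most correlated with Asb2; ends of a range and marker examples are named too. The members and lists were chosen with earlier results of these data known. Alternatives were quantile normalization, median centring, an offset of 50, a filter on dim probe sets, moderation without trend or robust, a block on the replicate number, a fit of the 4 arrays compared alone, other probe sets, and each array left out in turn. The fit was tested on simulated data with 200 changed probe sets. Promoter windows are RefSeq's (GRCm38.p6), 250 bases up to each start. Scripts used Python 3.11.15 and matplotlib 3.10.9.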

Additional observations from a re-analysis of the deposited data

How the results depend on the processing

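Asb2 was higher with [BF/S+L/Ep] at both times under each alternative run. At 12 h an offset of 50 lowered its log2 difference to 1.30, and leaving out 1 array gave 1.40 to 1.52. At 4 h leaving out 1 array gave 0.70 to 0.91, and its adjusted p stayed between 0.398 and 1.0 over 16 alternatives. The ranges of log2 differences that follow are also those with 1 array left out. Over time Asb2 gave 0.60 to 0.81 with [BF/S+L/Ep] and -0.01 to 0.10 with DMSO, where median centring gave -0.03. Cul5 had no stable sign: -0.36 to 0.10 at 12 h, -0.07 to 0.24 at 4 h, -0.19 to 0.11 over time with [BF/S+L/Ep] and -0.05 to 0.41 with DMSO. Its other probe sets gave 0.38 and 0.49 at 12 h, and -0.25 and -0.55 over time with DMSO. Flna gave 0.04 to 0.29 at 12 h, -0.08 to 0.13 at 4 h, 0.29 to 0.50 over time with [BF/S+L/Ep] (adjusted p 0.0551 to 0.590 over its alternatives) and 0.13 to 0.38 with DMSO.

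Numbers of probe sets called depended more on the fit, and the cause was not tested. Without the intensity trend 0 were called in each of the 4 contrasts. With an offset of 50, 4 were called at 12 h and 1 at 4 h. With only the 4 arrays compared there were 3 at 12 h, 1 at 4 h and 711 over time with [BF/S+L/Ep]. Median centring gave 713 over time with [BF/S+L/Ep] and 505 with DMSO. Leaving out 1 array gave 0 to 12 at 12 h (0 without the second [BF/S+L/Ep] array), 0 to 3 at 4 h (0 without the first [BF/S+L/Ep] or the first DMSO array at 4 h), 481 to 1089 over time with [BF/S+L/Ep] and 310 to 1013 with DMSO. The replicate number as a block gave 4 calls at 4 h and changed none for Cul5, Flna or Asb2. No source says that a replicate number marks a shared culture. Deviations of same-numbered arrays correlated at 0.11 between [BF/S+L/Ep] and DMSO at 12 h, -0.01 at 4 h, 0.11 between 12 h and 4 h with [BF/S+L/Ep] and -0.03 with DMSO, so the numbers were not treated as pairs. With 2 arrays a group the intervals are wide, and one that includes 0 does not exclude differences of the sizes inside it.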
